A study of Mus musculus with 2 samples.

Results

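The transcription factor p53 and the genes that respond to it were examined in mouse embryonic stem (ES) cells with a constitutive knockout of Eed (Eed KO), and in the ES cells given as the control for it, with 1 microarray per group. The set held 10 genes: Trp53, which encodes p53, 6 genes known to respond to it (Mdm2, Ccng1, Trp53inp1, Bax, Btg2 and Perp) and the 3 Gadd45 genes. Its members were all probe sets, groups of short oligonucleotides summarised into 1 signal, whose single gene symbol in the platform annotation was one of these names. This gave 16 probe sets for 8 of the 10 genes, out of 18193 genes on the array. Trp53 and Bax were not analysed here. The protein Eed is needed by Polycomb repressive complex 2 to methylate lysine 27 of histone H3. Both samples were total RNA labelled with biotin after 1 round of amplification. The labels used here give no strain, clone or passage, do not place the disruption within Eed, and do not say whether feeder cells were present. The 2 arrays allow no replicate error, so every difference below is a difference between these 2 arrays, with no SD and no p-value.

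The protein p53 accumulates when DNA is damaged or cells are stressed, and switches on genes that stop the cell cycle, repair DNA or lead to apoptosis. One of its targets, Mdm2, encodes the ubiquitin ligase that marks p53 for degradation, which closes a negative feedback loop, so the level of Mdm2 and other targets is often read as a measure of p53 activity. Mouse ES cells hold p53 protein even without damage. The Gadd45 proteins are small stress-induced partners of PCNA, the kinase Cdk1 and the kinase kinase kinase Map3k4; Gadd45a is a classical p53 target, whereas Gadd45b and Gadd45g are mainly induced by other signals.

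None of the 8 genes analysed differed by 2-fold between the arrays, the size used for a call throughout, and all 8 were detected on both. Detection meant a signal above a floor of 61.3, the 40th percentile of all signals, to which lower signals were raised before ratios were taken. With the same rule 10.8% of the 13794 genes measured were higher by 2-fold or more in the Eed KO, and 3.27% were lower by that size. After scaling both arrays to an equal median those shares were 6.35% and 7.53%, so the excess of higher genes depends on the scale. Of the 8 genes, 4 had a ratio above 1 and 4 below, with a median log2 ratio (Eed KO over control) of 0.01, against 0.12 over all measured genes. After scaling to an equal median the 2 medians were -0.30 and -0.16, and 2 genes were above a ratio of 1 and 6 below. As deposited and by the brightest probe set of each gene, their log2 ratios ran from -0.998 for Gadd45a to 0.57 for Gadd45b. Btg2 was close to the latter, at 0.56. When probe sets were averaged, Gadd45b was at 0.18, under Btg2 (0.43) and Ccng1 (0.40). At a smaller size of 1.5-fold, Gadd45a and Gadd45g were lower and 0 genes were higher, where 10.2% of all measured genes were lower and 23.3% higher. The plot of signals by probe set shows every value.

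**Figure D1:**
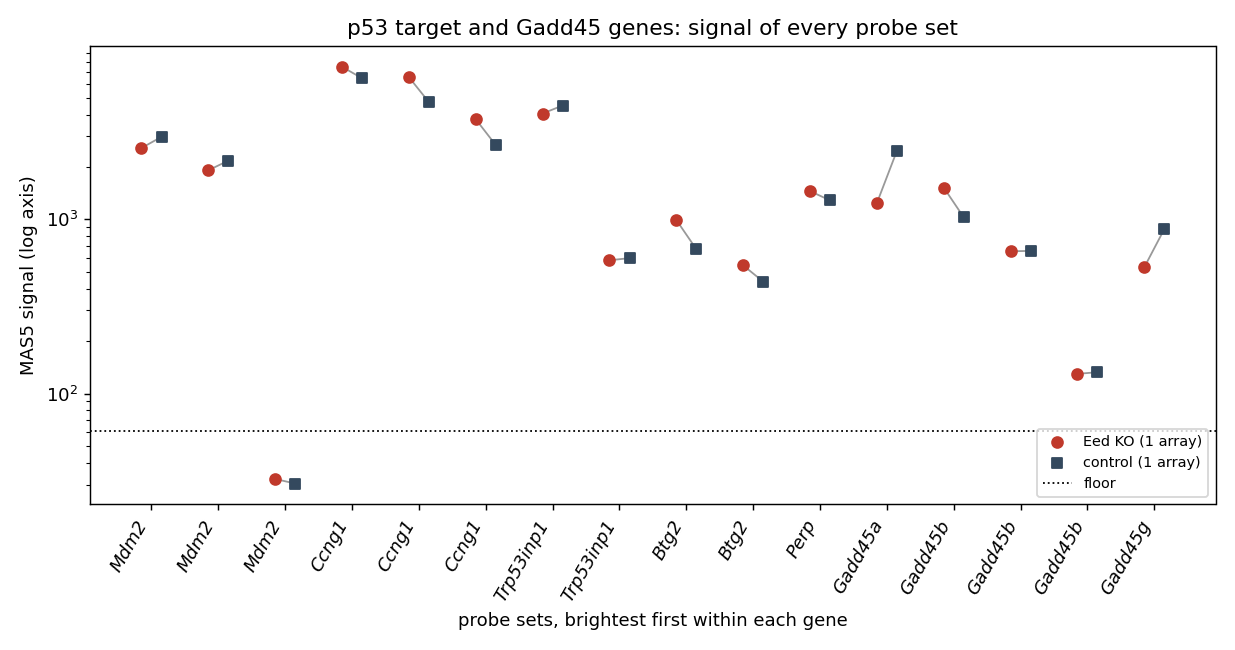
MAS5 signal (log axis) of each of the 16 probe sets of the 8 genes, brightest first within each gene, in the Eed KO array (circles) and the control array (squares), with the floor of 61.3 as a dotted line and 1 array per group. The Gadd45a and Gadd45g circles lie well below their squares, the 3 Ccng1 circles lie above theirs, and 1 Mdm2 probe set is under the floor on both arrays.

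Mdm2 and Ccng1, which both act back on p53, differed little. The brightest Mdm2 probe set read 2572 in the Eed KO and 2982 in the control, a log2 ratio of -0.21. A second one read 1915 in the Eed KO and 2178 in the control (log2 ratio -0.19), and the third was under the floor on both, at 32.3 in the Eed KO and 30.4 in the control. Both detected Mdm2 probe sets were thus slightly lower in the Eed KO. Ccng1 encodes cyclin G1, which recruits the phosphatase PP2A to Mdm2 protein. Its brightest probe set read 7534 in the Eed KO and 6471 in the control (log2 ratio 0.22). The others read 6571 and 3764 in the Eed KO, against 4718 and 2673 in the control, with log2 ratios of 0.48 and 0.49. All 3 Ccng1 probe sets were higher in the Eed KO. After scaling both arrays to an equal median the log2 ratio of the brightest, the lowest of the 3 as deposited, was -0.09. The others were not read alone under this scaling.

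Trp53inp1, Perp and Btg2 are effectors. Trp53inp1, a nuclear protein that promotes p53 phosphorylation and cell death, read 4060.4 in the Eed KO and 4513 in the control with its brightest probe set (log2 ratio -0.15). Its second probe set read 582.7 in the Eed KO and 599.5 in the control (log2 ratio -0.04). Perp, a tetraspan membrane protein of desmosomes that takes part in p53-dependent apoptosis, read 1455 in the Eed KO and 1287 in the control with its only probe set (log2 ratio 0.18). The sign of the Perp ratio turned after scaling both arrays to an equal median (-0.13) and after scaling on poly-A spikes (-0.02). Btg2, an antiproliferative protein that brings the deadenylase complex to mRNAs, had the largest ratio of the 3. It read 993.5 in the Eed KO and 674.4 in the control (1.47-fold, log2 ratio 0.56), and 544.8 in the Eed KO and 439.2 in the control with its second probe set (log2 ratio 0.31). Of all measured genes, 24.5% had a ratio at least as high as that of Btg2.

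By their brightest probe sets, the 3 Gadd45 genes went in opposite directions. Gadd45a read 1241 in the Eed KO and 2480 in the control with its only probe set, which is 1.998-fold lower (log2 ratio -0.998) and just short of a call. A ratio as low was seen for 3.31% of all measured genes. Gadd45g read 531.3 in the Eed KO and 881.5 in the control, also with 1 probe set (1.66-fold lower, log2 ratio -0.73), and 6.94% of measured genes were as low. Gadd45b read 1524 in the Eed KO and 1027 in the control with its brightest probe set (1.48-fold higher, log2 ratio 0.57). The 2 other Gadd45b probe sets gave nearly equal signals, 656.4 and 129.7 in the Eed KO against 659.7 and 132.6 in the control, so the mean log2 ratio over its probe sets was 0.18. By their brightest probe sets, the log2 ratio of Gadd45a was lower than that of Gadd45b by 1.57, a 2.96-fold difference. No array-wide scale factor can move this difference, as such a factor divides out between genes of the same arrays. The choice of Gadd45b probe set does move it. It is smaller against the 2 others, which had log2 ratios of -0.01 and -0.03. A spread was taken from the difference in log2 ratio between the 2 brightest probe sets of 1 gene. The SD of that difference was divided by the square root of 2, which gives an SD per probe set. It was 0.22 where the dimmer of the 2 had a mean signal of 1024 to 2048. At 512 to 1024 for the dimmer one the SD per probe set was 0.25. By their own mean signals, which is not the same measure, Gadd45a and the brightest Gadd45b probe set fall in the brighter range, and Gadd45g in the dimmer range. This SD covers technical and isoform spread within the arrays and not the spread between cultures.

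**Figure D2:**
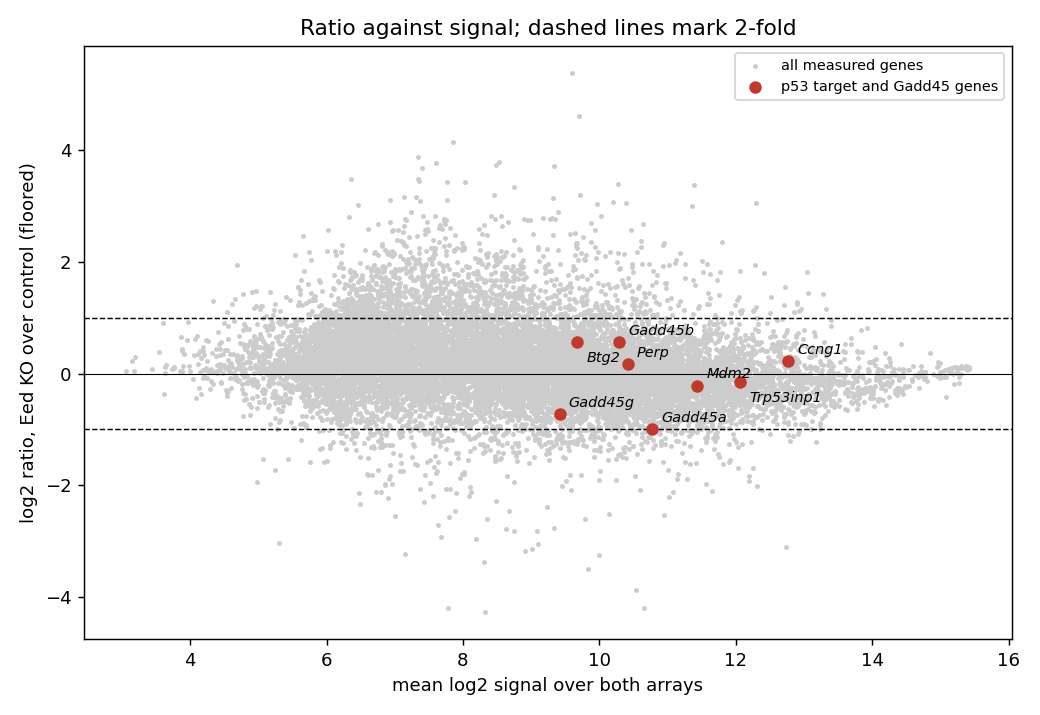
Log2 ratio of Eed KO over control against the mean log2 signal of both arrays for all 13794 measured genes (grey) and the 8 genes (red), each by its brightest probe set; dashed lines mark 2-fold. Gadd45a lies at the lower dashed line at -0.998, Gadd45g above it at -0.73, and the other 6 genes lie between -0.21 and 0.57.

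By brightest probe set, the 3 Gadd45 genes and Btg2 were the 4 with the largest differences. Their promoters are shown because their ratios point in different directions. They are RefSeq windows of build GRCm38.p6 from 250 bases before to 50 bases after the gene's start, written 5′ to 3′ along the gene, at chr6:67037358-67037657 (minus strand), chr10:80929841-80930140 (plus strand), chr13:51846425-51846724 (plus strand) and chr1:134079106-134079405 (minus strand). Capitals mark matches, on either strand, to the 10-letter p53 half-site, to TGACGTCA (the cyclic AMP response element), to TGATGNAA (the core of elements bound by ATF4 with C/EBP factors) and to TATAAA, a core promoter element.
Gadd45a promoter: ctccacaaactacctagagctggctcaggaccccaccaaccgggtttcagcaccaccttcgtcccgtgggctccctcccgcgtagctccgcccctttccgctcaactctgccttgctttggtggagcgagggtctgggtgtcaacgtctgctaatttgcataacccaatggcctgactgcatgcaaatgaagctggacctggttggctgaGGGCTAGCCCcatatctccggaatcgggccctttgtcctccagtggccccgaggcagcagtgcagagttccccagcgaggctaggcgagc
Gadd45b promoter: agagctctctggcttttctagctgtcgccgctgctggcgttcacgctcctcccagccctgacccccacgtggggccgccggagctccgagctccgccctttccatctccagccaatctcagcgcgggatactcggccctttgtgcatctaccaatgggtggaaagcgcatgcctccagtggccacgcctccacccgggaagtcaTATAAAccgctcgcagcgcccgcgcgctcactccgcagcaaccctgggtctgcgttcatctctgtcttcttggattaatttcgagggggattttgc
Gadd45g promoter: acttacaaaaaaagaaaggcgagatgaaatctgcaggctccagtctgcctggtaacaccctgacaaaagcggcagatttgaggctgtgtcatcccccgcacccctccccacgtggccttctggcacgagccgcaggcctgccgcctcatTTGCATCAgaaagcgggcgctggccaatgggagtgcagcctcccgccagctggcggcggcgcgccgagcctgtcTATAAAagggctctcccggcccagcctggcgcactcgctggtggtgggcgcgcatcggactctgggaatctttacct
Btg2 promoter: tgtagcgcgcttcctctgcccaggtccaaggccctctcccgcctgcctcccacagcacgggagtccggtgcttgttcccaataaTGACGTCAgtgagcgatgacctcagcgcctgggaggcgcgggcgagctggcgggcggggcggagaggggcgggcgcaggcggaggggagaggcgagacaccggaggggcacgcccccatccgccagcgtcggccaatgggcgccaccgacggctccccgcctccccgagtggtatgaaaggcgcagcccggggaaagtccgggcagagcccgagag
A p53 response element is made of a pair of such half-sites, so 1 match is only part of one. The p53 half-site stood in the Gadd45a window as GGGCTAGCCC, starting 40 bases before the gene's start, and in none of the other 3. Gadd45g held TGATGNAA on the opposite strand, 101 bases before its start, Btg2 held TGACGTCA, 166 bases before, and Gadd45b and Gadd45g each held a TATAAA. Windows were found for 6 of the 8 genes, and the half-site was also in those of Mdm2 (GAACTTGCCT) and Ccng1 (GGGCAAGCCT), 186 and 185 bases before the start. It was thus in 3 of 6 windows, against 8.36% of all 32851 RefSeq windows of this length. TGACGTCA was in 1.79% of all windows, TGATGNAA in 3.97% and TATAAA in 13.6%. The letters CCAAT, searched as well, were in all 6 windows and in 37.4% of all windows, and no 2 matches overlapped. The 3 genes whose windows held the half-site had log2 ratios of -0.998 (Gadd45a), -0.21 (Mdm2) and 0.22 (Ccng1). The 6 windows held 14 (Gadd45a and Ccng1) to 35 (Mdm2) CpG, the dinucleotide common in promoters that Polycomb complexes bind, against a median of 7 over all windows. Of all windows, 36.3% held at least as many CpG as those of Gadd45a and Ccng1, 24.8% as that of Gadd45g, 20.0% as that of Gadd45b, 9.52% as that of Btg2 and 6.95% as that of Mdm2. A match of letters is a description and does not show binding.

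Other p53 targets were taken from a list of 56 genes, of which 52 had a probe set and all 52 were measured. Higher by 2-fold or more in the Eed KO were 7 of the 52 (13.5%), against the 10.8% of all measured genes, and 1 was lower (1.92%, against 3.27%). The list's median log2 ratio was 0.14, against 0.12 over all measured genes, and after scaling to an equal median the 2 medians were both negative, at -0.17 and -0.16, with 5 targets higher and 1 lower. Cdkn1a, which encodes the cyclin-dependent kinase inhibitor p21 and is the best known p53 target, read 2094 in the Eed KO and 1373 in the control (1.53-fold higher, log2 ratio 0.61). Its second probe set was nearly equal, at 620.4 in the Eed KO and 611.6 in the control. The genes furthest up were Thbs1, encoding the secreted matrix protein thrombospondin 1 (8119 in the Eed KO and 2273 in the control, 3.57-fold), the tetraspanin gene Cd82 (330.2 in the Eed KO and 104.7 in the control, 3.15-fold) and the epoxide hydrolase gene Ephx1 (1424 in the Eed KO and 491.3 in the control, 2.90-fold). The autophagy gene Dram1 (340.4 in the Eed KO and 125.6 in the control, 2.71-fold) and the cytokine gene Lif (355.4 in the Eed KO and 139.7 in the control, 2.54-fold) followed. The second Cd82 probe set had a log2 ratio of only 0.27, and the Cd82 and Lif means over probe sets were under 2-fold (0.96 and 0.92). Rprm, encoding the cell-cycle arrest protein reprimo, was the lower one, under the floor in the Eed KO at 55.6 and at 243.3 in the control, which is at least 3.97-fold lower (log2 ratio -0.53 when the 60th percentile served as the floor).

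The following examples from the same list were grouped by role and picked after their values were seen, so they give no count for a role. Among apoptosis genes, Pmaip1, encoding the BH3-only protein Noxa, read 4263 in the Eed KO and 1851 in the control (2.30-fold higher, but a log2 ratio of 0.90 after scaling to an equal median). Bbc3, encoding the BH3-only protein Puma, read 575.4 in the Eed KO and 634.2 in the control (log2 ratio -0.14). The exonuclease gene Aen had a log2 ratio of 0.83, and all 4 of its probe sets had a ratio above 1. The death receptor genes Fas and Tnfrsf10b had log2 ratios of 0.86 (a lower bound, as Fas was under the floor in the control) and 0.64, against 0.11 for Apaf1, -0.14 for Siva1 and -0.39 for Pidd1, which act in caspase activation or apoptosis. Among DNA repair genes, Rrm2b, a subunit of ribonucleotide reductase, had a log2 ratio of 0.72, Xpc one of 0.23, Ddb2 one of 0.03, the translesion polymerase gene Polk one of -0.13 and the nuclease gene Ercc5 one of -0.52. Among metabolic and stress genes, Sat1, which starts polyamine breakdown, read 3857 in the Eed KO and 1839 in the control (2.10-fold higher). Sat1 was under 2-fold after scaling to an equal median (log2 ratio 0.76), on the poly-A spikes (0.87) and on the hybridization spikes (0.99). Sesn2 (1502 in the Eed KO and 807.0 in the control) and Ddit4 (4363 in the Eed KO and 2268 in the control), both inhibitors of mTORC1 signalling, had log2 ratios of 0.90 and 0.94, against 0.30 for Sesn1 and 0.10 for Tigar, a regulator of glycolysis. Lower in the Eed KO, but within 2-fold, were Zmat3, an RNA-binding protein (log2 ratio -0.69), and the mitotic genes Gtse1 (-0.69) and Psrc1 (-0.65).

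Regulators of p53 were mostly within 2-fold. Of 29 measured, 1 was at least 2-fold higher (3.45%, against 10.8% of all measured genes), 0 were lower, and 22 had a ratio below 1, with a median log2 ratio of -0.16. Over all 13794 measured genes, 5666 had a ratio below 1 and the median was 0.12. When probe sets were averaged, 16 of the 29 were below 1 and the median was -0.08. After scaling to an equal median or on the poly-A spikes, 2 of the 29 regulators were lower by 2-fold. Of all measured genes, 7.53% and 5.57% were lower by that size under these scalings. The 2 were Usp10 (log2 ratios -1.16 and -1.05) and Trim24 (-1.13 and -1.03), a ubiquitin ligase of p53. Both were named after their values were seen. Mdm4, which binds p53 and holds its activity down, read 1508 in the Eed KO and 1514 in the control. The higher gene was Cdkn2a, a well-known Polycomb target that encodes the kinase inhibitor p16Ink4a and, in another reading frame, the Mdm2 inhibitor p19Arf. It read 174.2 in the Eed KO and was under the floor in the control at 43.1, at least 2.84-fold higher, and its log2 ratio was 0.05 when the 60th percentile served as the floor. Which of its transcripts the probe set reads was not examined. The deubiquitinase genes Usp7 and Usp10, picked after their values were seen, had log2 ratios of -0.62 and -0.85, and the damage kinase gene Atr one of 0.78, with -0.45 and 0.43 for its 2 other probe sets. The p53 relatives were close to the floor. Trp63 read 63.6 in the Eed KO and 31.9 in the control, and Trp73 read 90.4 in the Eed KO and 89.4 in the control. Among 7 p53 relatives and genes named after p53, Trp53inp2, a relative of Trp53inp1 with a role in autophagy, was 2.16-fold higher (767.1 in the Eed KO and 354.4 in the control), and Trp53rka was 3.10-fold lower (90.9 in the Eed KO and 282.2 in the control). When the 60th percentile served as the floor, Trp53rka stayed within 2-fold (log2 ratio -0.75), and so did Trp53inp2 when its probe sets were averaged (0.56), after quantile normalization (0.97) and after scaling to an equal median (0.81) or on the poly-A spikes (0.92).

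**Figure D3:**
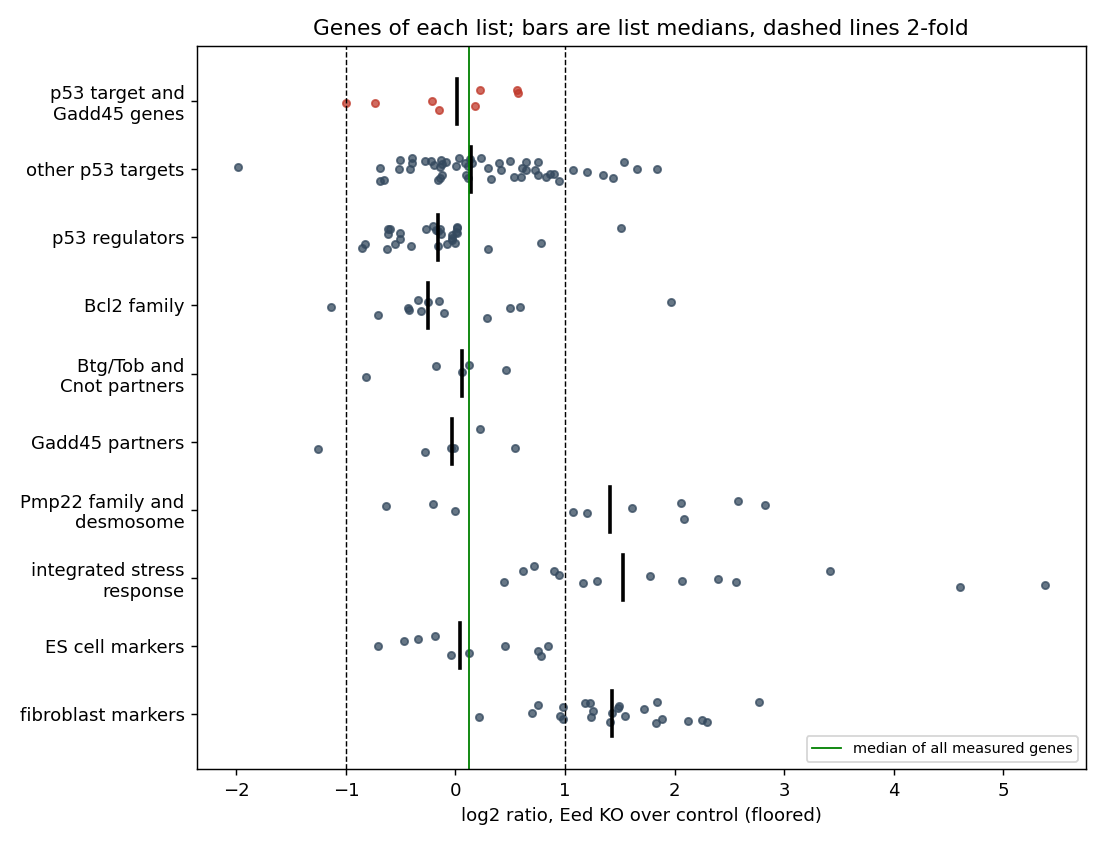
Log2 ratio of Eed KO over control for each measured gene of 10 gene lists (points, spread vertically at random), with the list median as a black bar, the median of all measured genes (0.12) as a green line and 2-fold as dashed lines. The 8 genes (red) and the other p53 targets have medians of 0.01 and 0.14, whereas the lists of the integrated stress response, the Pmp22 family with desmosome genes, and fibroblast markers have medians of 1.53, 1.41 and 1.43.

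Relatives and partners of the members were described in the same way. The Bcl2 family decides over mitochondrial apoptosis, and 1 of its 13 measured genes was at least 2-fold higher and 1 lower, shares of 7.69% each way against 10.8% and 3.27% of all measured genes, with 9 below a ratio of 1; 2 were higher when the 25th percentile served as the floor. The BH3-only gene Hrk read 369.7 in the Eed KO and 94.7 in the control (3.90-fold higher), and its second probe set went the same way (log2 ratio 1.84). Bcl2l11, encoding the BH3-only protein Bim, read 1063 in the Eed KO and 2341 in the control (2.20-fold lower), and its 4 other probe sets had log2 ratios of -1.24 to -0.78. Of the survival genes, Mcl1 read 10095 in the Eed KO and 12545 in the control (log2 ratio -0.31), Bcl2l1 read 876.6 in the Eed KO and 622.7 in the control (0.49), and Bcl2 was near the floor, at 62.9 in the Eed KO and 67.7 in the control. Of 5 measured Btg and Tob genes and their deadenylase partners, 0 differed by 2-fold as deposited. Cnot7, named after its values were seen, was lower by that size after scaling to an equal median (log2 ratio -1.12) or on the poly-A spikes (-1.02). As deposited, Ccng2, Ccni and Gak, the 3 genes listed with cyclin G1, did not differ by 2-fold. Of 6 Gadd45 partners, 1 was lower (16.7%, against 3.27% of all measured genes). This was Gadd45gip1, which encodes a protein that binds Gadd45 proteins and is part of the mitochondrial ribosome. It read 1243 in the Eed KO and 2967 in the control (2.39-fold lower), while its second probe set went the other way, at 151.2 in the Eed KO and 55.6 in the control. Perp belongs by sequence to the Pmp22 family and by place to the desmosome. Of 10 measured genes of these kinds 7 were at least 2-fold higher (70.0%, against 10.8% of all measured genes). Among the 7, Emp1 read 2768 in the Eed KO and 389.5 in the control (7.11-fold). Dsg2 read 3443 in the Eed KO and 576.3 in the control (5.97-fold). Emp2 read 672.2 in the Eed KO and 158.4 in the control (4.24-fold). The other 3, Pkp2 (log2 ratio -0.63), Jup (-0.20) and Pkp3 (-0.01), were not higher. After scaling to an equal median 5 of the 10 were higher, against 6.35% of all measured genes. Perp had a log2 ratio of 0.18.

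Stress genes and cell type markers were read from the same arrays. The integrated stress response is the pathway in which the factor ATF4 is translated under amino acid or endoplasmic reticulum stress. Of 14 of its genes, 9 were higher by 2-fold or more in the Eed KO (64.3%, against 10.8% of all measured genes). They included Nupr1 (log2 ratio 5.38), Chac1 (4.61), Vldlr (3.42), Ddit3 (985.8 in the Eed KO and 187.7 in the control) and Atf4 itself (11907 in the Eed KO and 4879 in the control, 2.44-fold). Without probe sets shared between transcripts, Vldlr had a log2 ratio of 0.10, from a probe set near the floor (65.6 in the Eed KO and 29.4 in the control). Its other unshared probe sets had log2 ratios of 0.87 to 2.66, with the control under the floor. The stress response list was chosen with its direction already known from these arrays, and it shares Sesn2 and Ddit4 with the other p53 targets. All other lists, also those of fibroblast markers and of Pmp22 family and desmosome genes, were chosen with earlier results of these data known. Of 23 measured fibroblast markers, 17 were at least 2-fold higher (73.9%, against 10.8% of all measured genes) and all 23 had a ratio above 1. Their summed signal was 67836 in the Eed KO and 31974 in the control. All 23 were above the floor on both arrays, and Lum, also a fibroblast marker, was under it on both. Under the alternatives, 13 to 18 of these markers were higher at 2-fold, and 1 of the 23 had a ratio below 1 in 2 alternatives, an equal median and the averaging of probe sets. Of 10 ES cell markers all were measured and 0 differed by 2-fold, where 10.8% of all measured genes were higher and 3.27% lower. After scaling to an equal median and when probe sets were averaged, 1 of these markers was lower. Their summed signal was 146049 in the Eed KO and 133071 in the control. More cells of a type and more RNA per cell cannot be told apart in such samples, and the part of fibroblast or stress genes in the values above was not tested. The main Eed probe set read 11456 in the Eed KO and 10101 in the control; as the labels do not place the disruption, it does not check them.

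The direction of 6 of the 8 genes, read by the brightest probe set or by the mean over probe sets, did not turn with the processing. For Gadd45b this rests on its brightest probe set. Its 2 others, which no alternative read alone, had log2 ratios of -0.01 and -0.03. Gadd45a, Gadd45g, Mdm2 and Trp53inp1 stayed below a ratio of 1, and Btg2 and Gadd45b above it, under all 10 alternatives of scaling, floor and probe set choice. Floors at the 25th and 60th percentile, and leaving out probe sets shared between transcripts, left these 6 values unchanged. Averaging could not move Gadd45a and Gadd45g either, as each has 1 probe set. Gadd45a ranged from -1.31 to -0.95 on the log2 scale and Gadd45g from -1.04 to -0.70. Gadd45a passed 2-fold in 3 of the 10 alternatives, namely with scaling on the hybridization spikes (-1.07), on the poly-A spikes (-1.20) and to the same median (-1.31). Gadd45g passed it in the last of them only. Those 3 scalings also moved the median of all measured genes, to 0.06, -0.06 and -0.16. Set against that median, the log2 ratio of Gadd45a was -1.12 as deposited and -1.15 to -0.98 under the 10 alternatives.

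**Figure D4:**
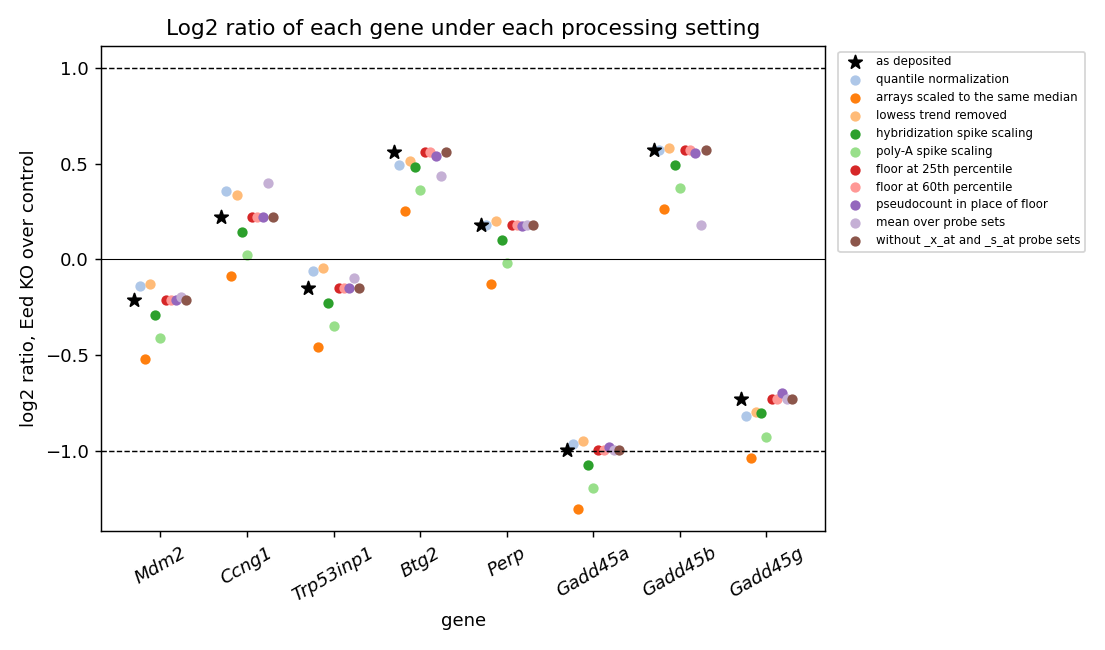
Log2 ratio of Eed KO over control for each of the 8 genes as deposited (star) and under each alternative of scaling, floor and probe set choice (dots), with dashed lines at 2-fold. Gadd45a ranges from -1.31 to -0.95 and Gadd45g from -1.04 to -0.70, while Ccng1 and Perp lie on both sides of 0.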

How the data were processed

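Expression was measured on Affymetrix MOE430 2.0 arrays, 1 for Eed KO and 1 for control ES cells, grouped by the sample titles. Per the submitters' processing notes the deposited intensity values are MAS5 signals, on a linear scale, with no version given; their mean, trimmed by 2% of signals at each end, was 500.00 on both arrays. Depth does not apply, and the number of arrays limits precision. Of 45101 probe sets, 34945 carried 1 gene symbol; the 932 with several were not used. For each gene the probe set of highest mean log2 signal was taken. Signals were raised to the floor of 61.3, and a gene counted as measured when above it on at least 1 array; 2-fold was the size of a call, with no test. Members, lists and settings were chosen with earlier results of these data known. Named were all members, up to 5 genes past 2-fold in each direction of the target and regulator lists, up to 3 of each other list, and 10 genes whatever their value. Other genes were named outside this rule, and not all of them are marked. The alternatives are given in the closing section. Motifs were searched in RefSeq promoter windows. The code was tested on simulated data. Python 3.11.15, pandas 2.3.3, scipy 1.17.1 and statsmodels 0.14.6 were used.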

Additional observations from a re-analysis of the deposited data

How the results depend on the processing

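With 1 array per group no replicate could be left out, and no value has a sampling error. No paired analysis was possible because each group has 1 array. As deposited, 0 of the 8 genes were lower by 2-fold; 1 was with scaling on the hybridization spikes and 1 with scaling on the poly-A spikes (Gadd45a), and 2 after scaling to an equal median or with calls at 1.5-fold (Gadd45a and Gadd45g). Of all measured genes, 3.27% were lower by 2-fold as deposited. With the hybridization spikes, the poly-A spikes and an equal median, 3.98%, 5.57% and 7.53% were, and 10.2% were lower at 1.5-fold. The count of higher genes among the 8 was 0 in all 12 alternatives. Of the other p53 targets, 7 were higher and 1 lower; calls at 1.5-fold gave 18 and 4 of 52 (23.3% and 10.2% of all measured genes), calls at 3-fold gave 2 and 1 (3.53% and 0.739% of all measured genes), and the floor at the 60th percentile gave 0 lower. The other alternatives, quantile normalization, removal of an intensity trend (lowess span 0.3), the floor at the 25th percentile, a pseudocount of 32 in place of the floor, averaging of probe sets, and leaving out _x_at and _s_at probe sets, moved the counts of these 2 lists by at most 1.5 times. Gadd45gip1 was reversed when its probe sets were averaged (log2 ratio 0.024, against -1.26), since its second probe set went the other way. Of 682 log2 ratios of 69 named genes under the alternatives, 574 stayed within the SD per probe set at their signal. Another 107 moved by more, and 1 changed sign after a call. The 574 include values that an alternative could not move, such as those of genes well above the floor when only the floor changed. Sign changes of genes without a call as deposited were not counted.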
